A study of Mus musculus with 4 samples.

Results

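The genes described are 9 secreted products of stromal cells, Dcn, Lum, Aspn, Postn, Spp1, Mgp, Igfbp7, Dlk1 and Cxcl12, out of 32289 genes in tables of single cells from mouse inner ear organoids. They were chosen by symbol, with earlier results of these libraries known, as genes followed in Col1a1- and Col3a1-positive cells of day 16 and day 20 and in Car3- and T-positive cells. All 9 symbols named a single row of the tables. Organoids are embryonic stem cell cultures that form otic tissue together with other cell types. The stem cell line carried Atoh1-nGFP, a nuclear GFP that reports Atoh1, a regulator needed to form hair cells, and all groups shared it. Cells from dissociated organoids were sorted by their GFP and made into 4 10x Genomics libraries, 1 for each group. These were day 16, day 20 and, at day 21, a gate of high and a gate of low GFP signal, called GFP high and GFP low. The labels call the cells otic lineage and do not say which GFP gate was taken at day 16 and day 20. They speak of single nuclei in the sample descriptions and of cells in the protocol.

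Stromal fibroblasts build the matrix between epithelia. Fibrils of collagen types I and III form their scaffold, small leucine-rich proteoglycans coat the fibrils and set their spacing, and matricellular proteins link matrix to cell receptors. The same cells release growth factor binding proteins and chemokines, and around the inner ear the periotic mesenchyme signals to the otic epithelium as the labyrinth forms. Decorin (Dcn), lumican (Lum) and asporin (Aspn) are small leucine-rich proteoglycans. Periostin (Postn) and osteopontin (Spp1) are matricellular proteins that bind integrins, and osteopontin is also made by bone, immune and some epithelial cells. Matrix Gla protein (Mgp) inhibits calcification. Igfbp7 binds insulin-like growth factors, Dlk1 is an imprinted transmembrane relative of Notch ligands whose outer part is shed, and Cxcl12 is the chemokine that acts on Cxcr4 and Ackr3.

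After filtering, 3376 cells remained at day 16, 4348 at day 20, 3435 in the GFP high library and 3686 in the GFP low library, in that order with median depths of 15226, 8836, 28868 and 22221 UMIs (unique molecules counted). Any pair of libraries shared between 1 and 8 cell barcodes. Levels are given as CPM, UMIs of a gene scaled to a fixed total of all UMIs, summed over a set of cells, and ratios of CPM carry exact 95% intervals that cover counting error only. With 1 library a group there is no test between groups and no spread between replicates. A gene was called higher or lower where its CPM ratio was at least 2-fold and the interval excluded 1, for genes that reached 10 CPM in 1 of the sets. Such a difference is one between the libraries, and a change in how many cells of a type were captured cannot be told apart from a change of level in a whole-library sum.

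On GRCm38 (GENCODE M21) all 9 genes are protein-coding. Dcn (chromosome 10, 97479609 to 97518143) and Lum (97565128 to 97572703) are neighbours on the plus strand, followed by Kera, which encodes another proteoglycan of the family. Aspn (chromosome 13, 49544443 to 49567565, plus strand) lies between Ecm2 and Omd, with Ogn next, all of the same family. Dlk1 (chromosome 12, 109452823 to 109463336, plus strand) opens an imprinted domain that also holds Meg3. Spp1 (chromosome 5, 104435118 to 104441050, plus strand) follows Ibsp and Mepe, which encode bone matrix proteins. Postn is on chromosome 3 (54361109 to 54391037, plus strand), Mgp on chromosome 6 (136872435 to 136875823, minus strand), Cxcl12 on chromosome 6 (117168535 to 117181367, plus strand) and Igfbp7 on chromosome 5 (77349240 to 77408041, minus strand).

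RefSeq promoter windows on GRCm38.p6 were matched for 6 of the 9 genes, Postn, Aspn, Igfbp7, Dlk1, Cxcl12 and Spp1. The 150 bases before the start are shown for Igfbp7, Dlk1 and Cxcl12, which kept the day 20 difference in collagen-positive cells under every setting tried, and for Spp1, which did not follow them. They read 5′ to 3′ on each gene's strand, with motif matches on either strand in capitals. The motifs were the TATA box TATAAA, the CCAAT box, the GC box GGGCGG, the forkhead motif TGTTTAC, the AP-1 motif TGANTCA, the TEAD motif CATTCC and the TCF motif CTTTGAT. The E-box CANNTG was searched too but is not in capitals.
Igfbp7 (chr5:77408046-77408195, minus strand): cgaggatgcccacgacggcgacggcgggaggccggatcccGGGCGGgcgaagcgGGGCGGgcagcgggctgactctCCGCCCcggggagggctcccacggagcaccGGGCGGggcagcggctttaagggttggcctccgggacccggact
Dlk1 (chr12:109452673-109452822, plus strand): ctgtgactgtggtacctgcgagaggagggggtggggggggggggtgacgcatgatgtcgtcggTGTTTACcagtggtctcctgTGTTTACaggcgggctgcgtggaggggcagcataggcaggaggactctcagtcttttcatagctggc
Cxcl12 (chr6:117168385-117168534, plus strand): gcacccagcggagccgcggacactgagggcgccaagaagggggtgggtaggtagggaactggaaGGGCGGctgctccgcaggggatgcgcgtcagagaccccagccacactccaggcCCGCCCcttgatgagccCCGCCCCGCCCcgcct
Spp1 (chr5:104434961-104435110, plus strand): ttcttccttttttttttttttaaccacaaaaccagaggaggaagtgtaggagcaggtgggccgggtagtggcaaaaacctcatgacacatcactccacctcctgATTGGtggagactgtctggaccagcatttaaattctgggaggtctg
Igfbp7 and Cxcl12 each had 4 GC boxes, a motif found in 28.6% of 32851 promoter windows of this length. Dlk1 had 2 forkhead matches, at positions -87 and -67 from the start, where 1.80% of windows held at least 1. Spp1 had a CCAAT box in reverse at -46, a motif found in 24.5% of windows. The window of Postn, not shown, held TATAAA at -26, found in 7.57% of windows, and that of Aspn held none of these 7 motifs. The AP-1, TEAD and TCF motifs, found in 4.24%, 7.59% and 1.80% of windows, were in none of the 6 windows, and the E-box, found in 47.7%, was in those of Spp1 and Aspn. A match is a description of these letters and not evidence of binding.

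Over whole libraries, 8 of the 9 genes had their highest level at day 20 and their lowest at day 21 GFP high, with day 16 above GFP low for each of them. Spp1 alone was lowest at day 16 and stood near 500 CPM in the other 3 libraries. All 9 genes were called higher at day 20 than at day 16, where 5.04% of 9885 genes tested were called higher. The median ratio of the 9 was 4.79, and that of all genes tested was 0.874.

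Among the proteoglycans, Dcn stood at 479 CPM at day 16, 1542 at day 20, and at day 21 at 55.3 in the high and 84.5 in the low gate. Lum stood at 255, 789, 9.76 and 21.8 CPM in the same order, and Aspn at 45.03, 226, 0.429 and 2.63 CPM. The 3 genes thus kept 1 order over the libraries, with day 20 over day 16 ratios of 3.22 (3.18 to 3.27) for Dcn, 3.09 (3.03 to 3.15) for Lum and 5.01 (4.80 to 5.23) for Aspn. Postn, which supports collagen cross-linking, stood at 134, 472, 7.92 and 23.0 CPM, a ratio of 3.52 (3.43 to 3.61).

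Of the soluble regulators, Mgp stood at 279, 1063, 21.9 and 38.1 CPM, a ratio of 3.81 (3.74 to 3.88). Igfbp7 stood at 36.2, 398, 8.98 and 14.3 CPM, a ratio of 11.0 (10.5 to 11.5). Dlk1 stood at 319, 1528, 27.5 and 69.6 CPM, a ratio of 4.79 (4.72 to 4.87). These 3 followed the proteoglycans in their order over the libraries. Cxcl12 stood at 52.7, 491, 11.9 and 29.8 CPM, a ratio of 9.31 (8.96 to 9.68). Spp1 stood at 23.4, 504, 513 and 447 CPM, and its day 20 over day 16 ratio of 21.6 (20.4 to 22.8) was the highest of the 9. Without the 145 Car3- and T-positive cells of day 20 and the 1 of day 16, the log2 ratio of Spp1 was 2.08, against 4.43 with them.

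**Figure D1:**
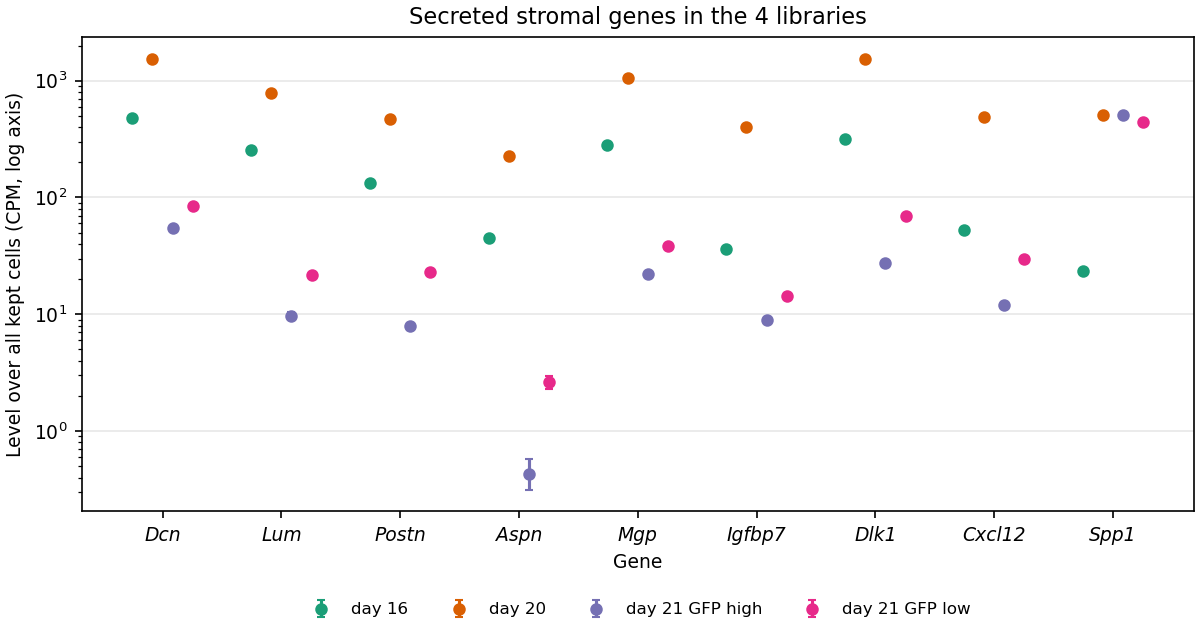
Level of each gene over all kept cells of a library (y axis, CPM, log scale) for the 9 genes (x axis); each point is 1 library and bars are exact 95% Poisson intervals, often smaller than the point. Spp1 is at 447 CPM or more in 3 libraries, while the other genes fall below 100 CPM in both day 21 libraries.

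Between the day 21 gates, 4 of the 8 genes tested were called lower in GFP high (background 7.72% of 10542 genes), none was called higher, and Aspn was below 10 CPM in both. The ratio of GFP high over GFP low was 0.344 (0.318 to 0.373) for Postn, 0.395 (0.378 to 0.413) for Dlk1, 0.401 (0.375 to 0.429) for Cxcl12 and 0.449 (0.416 to 0.484) for Lum. Mgp, Igfbp7 and Dcn had ratios of 0.575, 0.627 and 0.655, and Spp1 had 1.15 (1.13 to 1.16). Collagen-positive cells made up 2.18% of GFP high cells and 4.15% of GFP low cells. Within those 75 and 153 cells only Aspn of the 9 genes was called lower (background 3.19%), with 17.9 against 57.0 CPM, and the ratios of the other genes lay between 0.627 for Cxcl12 and 1.40 for Spp1.

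Cells with at least 1 UMI of both Col1a1 and Col3a1 numbered 1184 at day 16 (35.1% of kept cells) and 2253 at day 20 (51.8%). All 7 mesenchyme markers were above 10 CPM in them, with a summed level of 8007 CPM at day 16 and 13234 at day 20. The gate fixes part of this, since Col1a1 (2147 and 4190 CPM) and Col3a1 (2012 and 3282 CPM) are in the list, beside Col1a2, Pdgfra, Pdgfrb, Twist1 and Prrx1. Macrophage markers summed to 0.982 and 1.81 CPM, with Ptprc and Adgre1 at 0, and osteoblast markers to 35.02 and 16.5 CPM, with Bglap at 0. Neuron markers summed to 1082 CPM at day 16 and 309 CPM at day 20, otic epithelium markers to 267 and 73.2 CPM, and mural or smooth muscle markers to 117 and 462 CPM, with Acta2 at 274 CPM at day 20. The part of these markers in the differences between the days was not tested. These cells are called collagen-positive below.

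In both earlier libraries the collagen-positive cells held nearly all transcripts of 8 of the genes. Their share of the library's UMIs ran from 91.7% for Dlk1 to 98.1% for Aspn at day 16, and from 95.5% for Cxcl12 to 99.4% for Aspn at day 20. For Spp1 the share was 40.6% at day 16 and 7.42% at day 20. Against the other cells of the same library, 8 of 9 genes were called higher in every library, where the background was 9.68% of genes at day 16 and 11.9% at day 20, and 11.8% and 9.2% in the high and low gates of day 21. Spp1 had ratios of 1.58 (1.42 to 1.77) at day 16 and 0.0861 (0.0818 to 0.0906) at day 20, then 0.404 (0.368 to 0.443) in the high and 0.325 (0.300 to 0.351) in the low gate of day 21. The gate selects stromal cells, so the high ratios of the other 8 restate the choice of genes. Cells with exactly 1 UMI of each collagen, at the edge of the gate, had 15.5 CPM of Dcn at day 16 (92 cells) and 26.8 CPM at day 20 (59 cells). Cells with neither collagen had 16.9 and 42.5 CPM. Mgp at day 16 stood higher in the edge cells, at 27.1 (20.4 to 35.2) against 8.80 CPM, and so did Cxcl12 at day 20, at 65.0 (47.6 to 86.7) against 38.7 CPM.

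Within collagen-positive cells, 8 of the 9 genes were called higher at day 20 than at day 16, where 4.35% of 9469 genes tested were called higher. The median ratio was 2.47 for the 9 genes and 0.837 for all genes tested. This count fell to 5 with the mean of per-cell CPM, to 4 with at least 3 UMIs of each collagen required, and to 3 with cells thinned to 3000 UMIs. Sub-clusters in which over 40% of cells held a marker pair of another cell type are called mixed sub-clusters here. Without them the count was 4 higher and 1 lower. Of 8948 genes tested without them, 361 (4.03%) were called higher and 821 lower. Igfbp7, Cxcl12 and Dlk1 stayed above 2-fold under all 11 alternatives.

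Igfbp7 had the highest ratio, 6.99 (6.67 to 7.32), from 116 CPM at day 16 to 811 CPM at day 20. After thinning to 3000 UMIs, 24.1% of collagen-positive cells at day 16 and 70.8% at day 20 held a UMI of it, against 0.106% and 0.596% of cells with at least 2 UMIs of the neuronal genes Tubb3 and Stmn2. Cxcl12 went from 164 to 972 CPM, a ratio of 5.93 (5.70 to 6.17), with 29.7% and 69.9% of thinned cells positive, against 0.848% and 5.77% of the neuronal cells. Dlk1 went from 969 to 3121 CPM, a ratio of 3.22 (3.17 to 3.28), with 39.9% and 69.5% positive, against 6.57% and 4.77%. For these 3 genes the level in unthinned cells was higher at day 20, and so was the share of cells after thinning. For these shares the gate was set before thinning, whereas the count of called genes after thinning used a gate set on thinned cells. The median depth of collagen-positive cells before thinning was 13473 UMIs at day 16 and 8595 at day 20, and without thinning the shares were 38.3% and 81.2% for Igfbp7.

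Of the 3 proteoglycans, Dcn and Lum differed less between the days, and Aspn about as much as Dlk1. Dcn went from 1540.4 to 3153 CPM, a ratio of 2.05 (2.02 to 2.08), and Lum from 817 to 1625 CPM, a ratio of 1.99 (1.95 to 2.03), just under the threshold. Aspn went from 146 to 465 CPM, a ratio of 3.17 (3.04 to 3.32). Of the 3, Aspn alone was called without the mixed sub-clusters, with a ratio of 2.58, against 1.64 for Dcn and 1.62 for Lum. Postn went from 427 to 950.2 CPM, a ratio of 2.23 (2.17 to 2.29), and Mgp from 899 to 2170.5 CPM, a ratio of 2.41 (2.37 to 2.46). Without the mixed sub-clusters their ratios were 1.82 and 1.93, so Dcn, Lum, Postn and Mgp lay near the 2-fold threshold and their calls depended on which cells were counted.

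Spp1 went from 31.4 to 77.6 CPM in collagen-positive cells, a ratio of 2.47 (2.24 to 2.73), yet the share of thinned cells with a UMI was 3.90% at day 16 and 2.63% at day 20. The 10 cells with most Spp1 held 86.7% of its UMIs in this set at day 20 and 52.6% at day 16. Without the mixed sub-clusters the level was 40.2 CPM at day 16 and 10.6 CPM at day 20, a ratio of 0.263 (0.221 to 0.311), the opposite direction. Without the 10 top cells of each day the log2 ratio was also below 0, at -0.55. Of the collagen-positive cells at day 20, 10 were also Car3- and T-positive, and all 10 lay in 1 mixed sub-cluster with 946 CPM of Spp1.

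**Figure D2:**
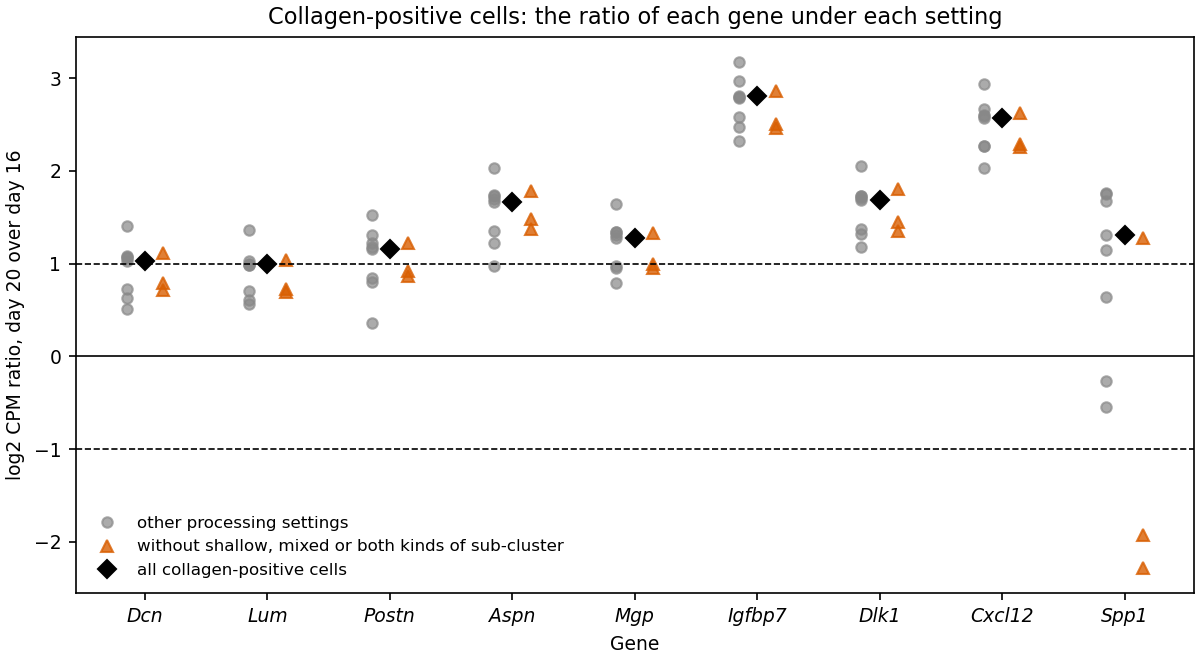
The log2 CPM ratio of day 20 over day 16 in collagen-positive cells (y axis) for each gene (x axis), with all such cells (black diamonds), under other processing settings (grey circles) and without sub-clusters that stand apart (orange triangles); dashed lines mark 2-fold. Igfbp7, Cxcl12 and Dlk1 lie above 1 throughout, and Spp1 spans 1.76 to -2.28.

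Other genes of the same matrix programmes, from lists set for this description, were compared in the same cells (background for higher calls 4.35%). Of 4 other small leucine-rich proteoglycans tested, 3 were higher at day 20 and none lower. Ogn, which encodes osteoglycin and lies close to Aspn, had 44.03 against 129 CPM, Bgn (biglycan) 547 against 1395 CPM, and Kera, next to Lum, 84.3 against 108 CPM without a call. Of 14 fibrillar collagens and collagen-making enzymes 3 were higher and none lower, with Pcolce, an enhancer of procollagen cleavage, at 87.3 against 240 CPM. Of 19 matricellular and elastic fibre genes 7 were higher and 1 lower: Mfap4, a microfibril protein, had 835 against 2175 CPM, Sparc 1154 against 2868 CPM, and Tnc (tenascin C) 63.0 against 24.7 CPM. Without the mixed sub-clusters 2, 1 and 3 genes of these lists were higher (background 4.03%), with Ogn, Bgn, Pcolce, Mfap4 and Sparc among them. The 1 of 14 collagen genes lay near the background share, and 1 matricellular gene was lower.

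Genes that act with the 9 differed in both directions (background for lower calls 13.1%). Of 12 genes of the insulin-like growth factor system and imprinted loci, 3 were higher and 1 lower, and without the mixed sub-clusters 1 was higher and 2 lower. Igf2, a growth factor bound by this family of proteins, had 240.5 CPM at day 16 and 755 at day 20, a ratio of 3.14 (3.03 to 3.25). Meg3, the non-coding RNA of the Dlk1 domain, went the other way from Dlk1, with 1728 CPM at day 16 and 634 at day 20, a ratio of 0.367 (0.359 to 0.374), and 0.326 without the mixed sub-clusters. Of 16 receptors and partners tested 4 were higher and 1 lower, and the same counts held without the mixed sub-clusters. Ackr3, the scavenger receptor for Cxcl12, had 15.8 against 35.0 CPM, Itga8, an integrin chain that binds osteopontin, 9.94 against 29.0 CPM, and Tgfb1, a growth factor held by decorin, 4.51 against 20.8 CPM.

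Of 12 matrix proteases and inhibitors 3 were higher at day 20, and 1 was higher and 1 lower without the mixed sub-clusters. The first by ratio was Mmp2, a gelatinase, with 369 against 982 CPM. Of 11 genes of mineralisation and osteoblasts only 2 reached 10 CPM, and both were lower: Alpl, the tissue alkaline phosphatase, had 26.1 against 9.12 CPM and Phex 25.8 against 11.6 CPM. Of 12 mesenchyme transcription factors none was higher and 4 were lower, among them Foxc1 with 23.8 against 2.21 CPM and Foxd1 with 98.5 against 28.3 CPM. The median log2 ratio was 1.23 for the proteoglycans, 0.68 for the collagens, 0.49 for the matricellular genes and -0.44 for the transcription factors, and -0.26 for all genes tested.

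Sub-clusters of the collagen-positive cells, 10 at day 16 and 9 at day 20 by Leiden clustering, differed in all 9 genes. In each library the highest sub-cluster of 20 cells or more exceeded the lowest at least 4-fold for every gene. At day 20 the lowest was mixed sub-cluster 6 for every gene but Spp1. Outside the mixed sub-clusters of day 20, Igfbp7 ran from 485 to 1136 CPM and Lum from 995 to 2577 CPM, under 4-fold. Dcn (1981 to 5949 CPM), Mgp (1226 to 3648 CPM) and Dlk1 (1812 to 5665 CPM) also stayed under it, while Postn, Aspn, Cxcl12 and Spp1 did not. The clustering left these 9 genes out, but the cells share a library, so this is a description. At day 16, sub-cluster 1 (321 cells, led by Fabp4, Ifi27l2a and Ccl2) and sub-cluster 2 (299 cells, led by Pitx1, Rtl3 and Rgcc) had near-equal Lum, at 1197 and 1274 CPM. They parted in Mgp, at 292 and 2585 CPM, and in Dlk1, at 477 and 2661 CPM. Sub-cluster 5 (69 cells, led by Ptgds, Aard and Lcp2) held Lum at 747 and Cxcl12 at 244 CPM but Dlk1 at only 16.0 CPM. It also had Spp1 at 371 CPM, against 0.230 CPM in sub-cluster 2, and 1.45% of its cells held a marker pair of another cell type.

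At day 20, sub-clusters 1, 2 and 3 (511, 476 and 401 cells, led by Fbln7, Hp and Gpnmb) had Cxcl12 at 1218, 1259 and 1208 CPM and Igfbp7 at 1030.5, 927 and 926 CPM. Dlk1 stood at 2243, 4082 and 5665 CPM and Dcn at 5304, 2936 and 2552 CPM, in opposite orders. Sub-cluster 7 (83 cells, led by Il17b, Pcp4l1 and Grem1) had the highest Igfbp7, 1136 CPM, and low Cxcl12, 193 CPM. Sub-cluster 8 (73 cells), led by the mitotic genes Depdc1a, Sapcd2 and Aurkb, had Dcn at 2184 and Lum at 1491 CPM.

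Sub-clusters that stood apart in quality carried some of the highest values. Sub-cluster 3 at day 16 (177 cells, median 2978 UMIs) and sub-cluster 4 at day 20 (298 cells, median 2397 UMIs) stood apart in depth, where the library medians were 15226 and 8836 UMIs. Malat1, a nuclear RNA, stood at 98323 and 137521 CPM in them, against 16795 and 8685 CPM in the other collagen-positive cells. They had the highest Postn of their libraries, 2631 and 4534 CPM, the highest Aspn, 651 and 1086 CPM, and the highest Dcn, 5281 and 5949 CPM. The part of depth and nuclear RNA in these levels was not tested. Without both shallow sub-clusters all 9 genes were called higher at day 20. The mixed sub-clusters were numbers 4, 7 and 9 at day 16 and numbers 6 and 9 at day 20, and at day 16 none of them exceeded 168 CPM for any of the 9 genes.

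**Figure D3:**
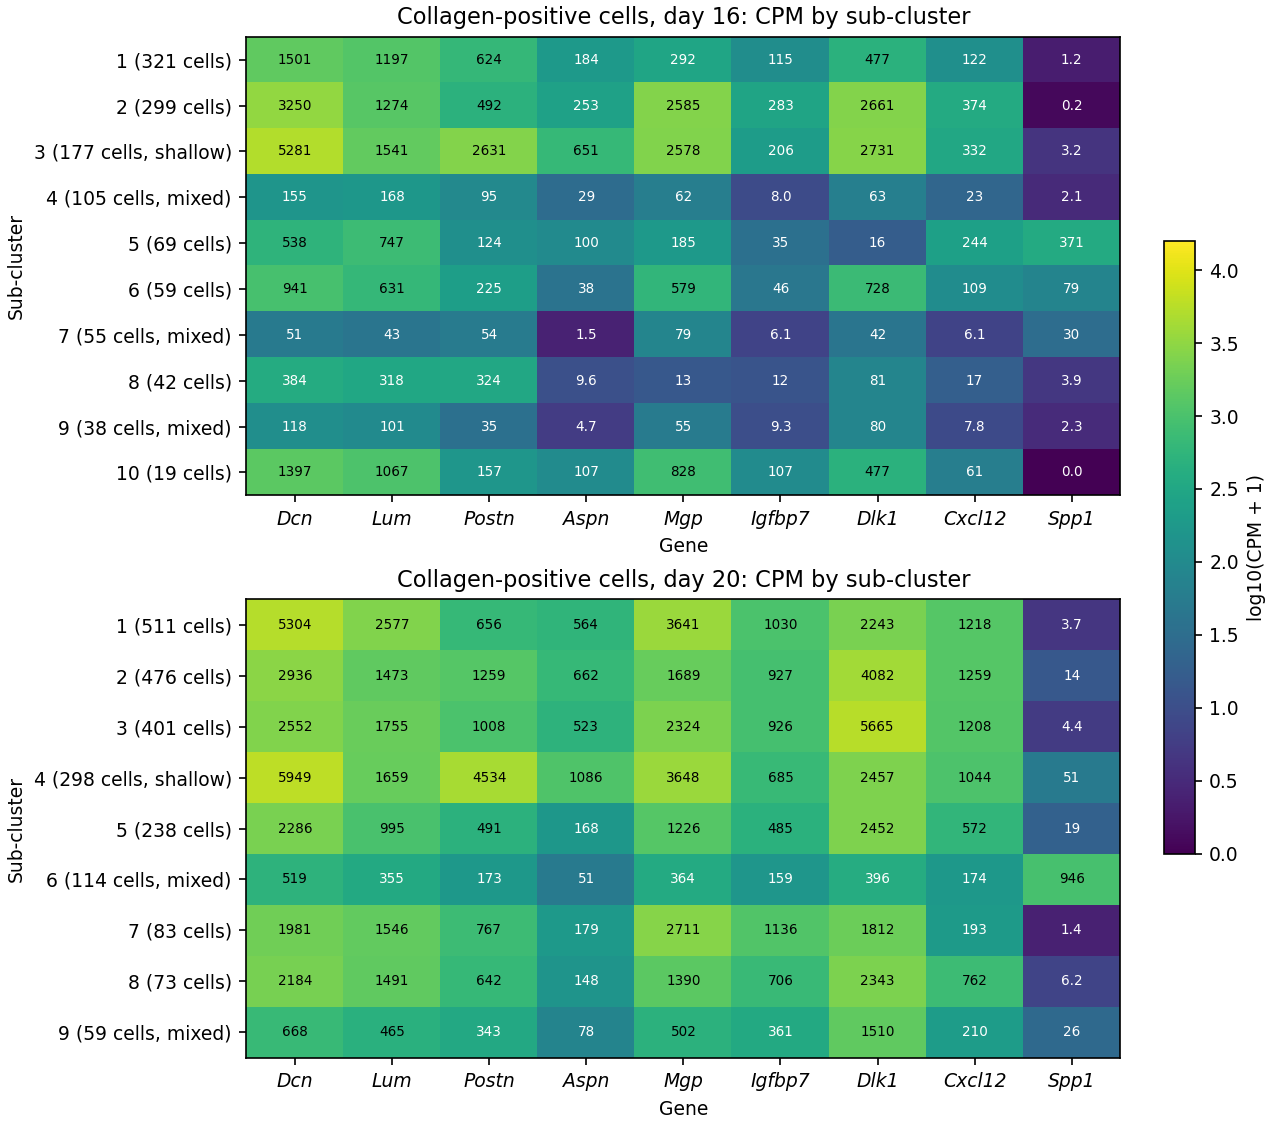
CPM (numbers, colour as log10(CPM + 1)) of each gene (x axis) in each sub-cluster of collagen-positive cells (y axis) at day 16 and day 20, with shallow and mixed sub-clusters marked. Dlk1 and Mgp are higher in sub-cluster 2 than in sub-cluster 1 at day 16, and Spp1 is high in sub-cluster 5 at day 16 and sub-cluster 6 at day 20.

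Across single collagen-positive cells thinned to 3000 UMIs, Dcn and Lum varied together, with Pearson r of 0.65 over 1025 cells at day 16 and 0.63 over 1976 cells at day 20. Dcn and Mgp had r of 0.66 and 0.53, and Postn and Mgp only 0.10 and 0.09. Spp1 had r between -0.13 and -0.03 with the other 8 genes at day 16 and between -0.13 and -0.06 at day 20. These cells share a library, and r is a description. Over 42 cell sets, Lum was most like Col1a1 (r = 0.96) and Col3a1 (0.96), which define the gate, Dcn most like Col5a1 (0.92), Postn most like Col5a2 (0.94) and Aspn most like Ptgfr (0.97) and Lox (0.96). Mgp and Igfbp7 were near each other (0.93), Dlk1 was most like Lhx8 (0.92) and Cxcl12 most like Mxra8 (0.91). The nearest gene to Spp1 was Slc15a5, with r of 0.74 only.

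Cells with a UMI of both Car3, a carbonic anhydrase, and T (brachyury), a transcription factor of the notochord, numbered 145 at day 20, 28 in GFP low, 13 in GFP high and 1 at day 16. Of the 6 notochord markers besides Car3 and T, 5 were above 10 CPM at day 20, among them Krt19 at 1236 and Shh at 93.1 CPM, while Noto was at 0. Krt8 stood at 266 CPM, against 284 CPM over the whole day 20 library, and Foxa2 at 11.7 CPM in 6.90% of the cells. Reporter transcripts stood at 6763 CPM, and all 6 macrophage and all 5 endothelial markers were at 0.

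Spp1, in contrast, stood high in these cells. It reached 13616 CPM (13414 to 13820) at day 20 against 96.0 in all other cells, and 142 of the 145 cells held a UMI of it. The Car3- and T-positive cells were 3.33% of day 20 cells and held 81.5% of the library's Spp1 UMIs. In the 13 GFP high cells Spp1 stood at 11749 CPM, in the 28 GFP low cells at 3474 CPM and in the single day 16 cell at 832 CPM. At day 20 it was the only 1 of the 9 genes called higher in these cells (background 7.36%), while 7 were called lower (background 21.7%). Lum was at 14.9 against 813 CPM, Aspn at 5.48 against 232 CPM and Dlk1 at 93.9 against 1573 CPM.

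Cxcl12 was the exception among the stromal genes in the Car3- and T-positive cells, with 372 CPM against 494 CPM in the other cells, a ratio of 0.753 (0.686 to 0.825). A UMI of it was found in 53.1% of those 145 cells, against 7.59% for Lum. The 10 cells with most Cxcl12 held 49.2% of it, and without them the log2 ratio was -1.17. In GFP low, Cxcl12 had 118 CPM in these cells against 29.2 in the others, a ratio of 4.05 (3.15 to 5.15), and Mgp 177 against 37.3 CPM, a ratio of 4.74 (3.86 to 5.77). Of 8 genes tested in GFP low, Spp1, Mgp and Cxcl12 were called higher (background 7.81%) and Dlk1 lower (background 17.6%). Mgp stood at 171 CPM in the Car3- and T-positive cells of day 20, close to the 177 CPM of GFP low. Its ratio at day 20 was 0.157, since the other cells of that library held 1091 CPM. Most of these UMIs came from few cells, and without the 10 top cells Mgp and Cxcl12 had log2 ratios of -0.092 and -1.88 in GFP low. That setting took 10 of the 28 Car3- and T-positive cells but 10 of 3658 other cells. A lower ratio is thus built into it, and no conclusion on direction is drawn from it.

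Other proteoglycans were split in the Car3- and T-positive cells of day 20, with 4 of 7 called higher and 3 lower. Fmod (fibromodulin) had 380.2 against 3.41 CPM, Prelp 124 against 2.85 CPM, Ogn 278 against 66.2 CPM and Omd 16.4 against 4.02 CPM. Bgn had 140.03 against 740 CPM and Kera 1.56 against 54.1 CPM. Of these genes, Fmod, Prelp and Omd were named after their values were seen. Mesenchyme markers summed to 629.7 CPM in these cells, cartilage markers to 688 CPM, glia or neural crest markers to 538 CPM (Fabp7 alone 534 CPM) and neuron markers to 332 CPM, and their part in these levels was not tested.

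Outside both gates, reference cells were taken as those with at least 2 UMIs of a marker pair and of no other pair. In cells with Pou4f3 and Myo7a, 2 genes of hair cells, Spp1 stood at 20.7 CPM at day 16 (88 cells), 794 at day 20 (46 cells), then 753 in the high gate (1779 cells) and 1818 in the low gate (582 cells). The day 16 level was below that of the whole library, 23.4 CPM. At day 20 the value rested on few cells: 3 cells with at least 2 UMIs of Bmp2 held 531 of the Spp1 UMIs, and the 42 cells without Bmp2 stood at 143 CPM. At day 21 these cells held 74.7% of the Spp1 UMIs of GFP high and 66.5% of those of GFP low. After thinning, 16.1% (14.4 to 17.9) of them in GFP high and 41.2% (37.2 to 45.4) in GFP low held a UMI of Spp1, against 0.617% and 2.97% of cells with Cnmd and Oc90. Unthinned, the shares were 30.2% and 51.2%. Both level and share were higher in the GFP low gate over all these cells, but not within each kind. Cells with Bmp2 stood at 2848 CPM in GFP high (184 cells) and 2288 CPM in GFP low (280 cells), and cells with Ocm at 1703 and 720 CPM. Cells without Bmp2 stood at 462 CPM in GFP high (1497 cells) and 1272 CPM in GFP low (262 cells).

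Among the Pou4f3- and Myo7a-positive cells of day 21, those with at least 3 Spp1 UMIs were compared with those without any, at similar median depths (28331 and 29994 UMIs in GFP high, 25941 and 25635 in GFP low). In both libraries 13 genes besides Spp1 were higher in the Spp1 cells, among genes at 50 CPM or more in those cells. Lower in both were 36 genes, among genes at 50 CPM or more in the cells without Spp1. The 2 counts thus rest on different sets of genes, and no share of all genes was taken. Bmp2, a growth factor, had 115 against 21.2 CPM in GFP high and 498 against 188 CPM in GFP low. Igfbp2 had 66.4 against 675 CPM and 136 against 568 CPM, and Cdkn1c, a cell cycle inhibitor, 26.7 against 678 CPM and 30.3 against 261 CPM. Split on Grp, Spp1 itself stood at 179 CPM in cells with at least 2 Grp UMIs and 1265 CPM in those without in GFP high, and at 1245 and 1914 CPM in GFP low. These genes were named after their values were seen.

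The other genes also had UMIs outside the collagen-positive cells, and at day 21 these were not always the smaller part. In GFP high, collagen-positive cells held fewer UMIs than all other cells for Mgp (475 against 1880) and Cxcl12 (489 against 793). The same held for Lum (456 against 591) and Dcn (2817 against 3121), but not for Postn, Aspn, Igfbp7 and Dlk1. In GFP low it held, of these genes, for Mgp alone (1143 against 2420). In cells with Krt5 and Krt15, keratins of basal epidermis, Dcn stood at 76.7, 150.3, 493 and 177 CPM over the 4 libraries in order, and Igfbp7 at 15.7, 55.7, 108 and 68.8 CPM. In the same cells Aspn was at 0.995 CPM or less, and Lum at 5.09 CPM or less. In cells with Tubb3 and Stmn2, Dlk1 stood at 37.5, 49.3, 57.9 and 57.4 CPM, a narrow range while its level in collagen-positive cells varied from 725 to 3121 CPM. The 725 CPM came from the 75 collagen-positive cells of GFP high, 19 of which held a marker pair of another cell type. Otic epithelium markers summed to 1312 CPM in those 75 cells. Mgp stood at 67.9 and 51.8 CPM in the Cnmd- and Oc90-positive cells of GFP high and GFP low. In Pou4f3- and Myo7a-positive cells the same genes gave 18.0 CPM or less of Dcn, 2.85 or less of Mgp and 6.21 or less of Dlk1.

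**Figure D4:**
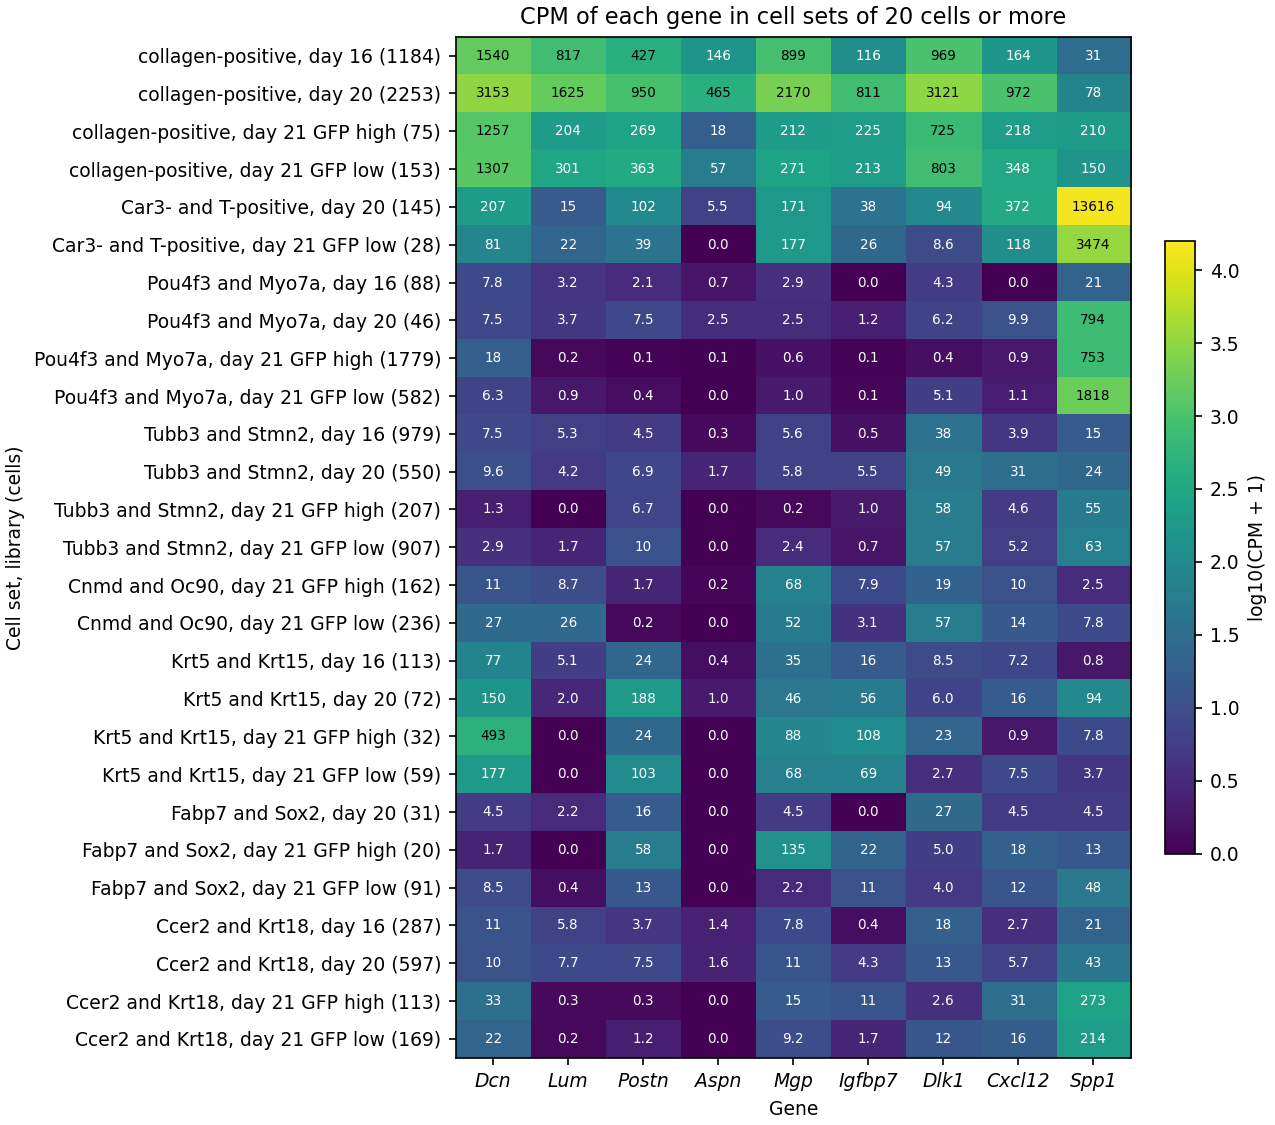
CPM (numbers, colour as log10(CPM + 1)) of each gene (x axis) in cell sets of 20 cells or more, with library and cell number (y axis). Collagen-positive and Car3- and T-positive cells hold at least 1 UMI of both gate genes. The other sets, named by 2 genes, hold cells with at least 2 UMIs of both. Each of the 4 collagen-positive rows exceeds every other row drawn for all genes but Cxcl12 and Spp1, and Spp1 peaks at 13616 CPM in the Car3- and T-positive cells of day 20.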

How the data were processed

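The authors deposited 1 filtered 10x matrix a library, with unnormalised UMI counts per gene and cell barcode, made with Cell Ranger 6.1.2 per the file headers (6.1.0 in the submitters' processing notes, which also name Seurat 4.0.6 and mm10). Whether intronic reads were counted is not given in the sources used here. Barcodes with at least 1000 detected genes and at most 15% mitochondrial UMIs were kept, and the barcodes with the highest Scrublet scores were left out as doublets, 0.8% for each 1000 barcodes (120, 205, 109 and 137 barcodes). Total counts per library in kept cells were 57364998, 42325800, 107308236 and 93416071 UMIs (day 16, day 20, then the high and low gates of day 21), with median mitochondrial shares of 2.60%, 0.92%, 5.06% and 3.42%. Counts were summed over cell sets and divided by all UMIs of the set. Intervals were exact Poisson for levels, Clopper-Pearson for shares and exact conditional binomial for ratios, all at 95%. Thinning drew 3000 UMIs a cell and left out 333, 555, 31 and 93 shallower cells. Collagen-positive cells were clustered within a library without the 9 genes described (Scanpy 1.11.5, 2000 variable genes, 30 components, 20 neighbours, Leiden at 0.5). Likeness was Pearson r of log2(CPM + 1) over cell sets. The calling script was tested on simulated data.

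The 9 genes, the gates and the gene lists were chosen with earlier results of these data known. Of each list, at most 4 genes at 20 CPM or more with the largest ratio in collagen-positive cells between day 16 and day 20 were eligible to be named, with up to 5 leading genes a sub-cluster and 3 most similar genes for each of the 9. Alternatives covered every deposited barcode, doublets kept, a 1 CPM minimum, means of per-cell CPM, stricter gates, another gate, thinning, TMM scaling (edgeR 4.0.16), and sets without their 10 top cells. Leaving out sub-clusters that stood apart, or the Car3- and T-positive cells, was added after seeing the data.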

Additional observations from a re-analysis of the deposited data

Results flagged for a closer look

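The ratio of Spp1 between collagen-positive and other cells lay on different sides of 1 in different libraries: 1.58 at day 16 and 0.0861 at day 20, then 0.404 in the high and 0.325 in the low gate of day 21. The level in the collagen-positive cells was 31.4, 77.6, 209.8 and 149.8 CPM, and that in the other cells 19.9, 901, 519 and 461 CPM. The difference between libraries was not tested, since each group is 1 library.

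In Car3- and T-positive cells against other cells, 4 genes had ratios below 1 at day 20 and above 1 in GFP low. Postn had 0.212 and 1.72, Mgp 0.157 and 4.74, Igfbp7 0.0937 and 1.81, and Cxcl12 0.753 and 4.05. The difference was not tested. The other cells held less of each gene in GFP low: 22.9 against 483 CPM for Postn, 37.3 against 1091 CPM for Mgp, 14.3 against 409 CPM for Igfbp7 and 29.2 against 494 CPM for Cxcl12. Within the Car3- and T-positive cells themselves the levels at day 20 and in GFP low were 102 and 39.5 CPM for Postn, 171 and 177 CPM for Mgp, 38.3 and 25.7 CPM for Igfbp7, and 372 and 118 CPM for Cxcl12. The GFP low values rest on 28 cells.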

How the results depend on the processing

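No paired analysis was possible because each group is 1 library. Of 73 counts of genes called under an alternative, 68 stayed within 1.5 times the reported count. The other 5 all concern day 20 over day 16 in collagen-positive cells, where 8 genes were called: 5 with the mean of per-cell CPM, 4 with the stricter gate, 3 after thinning, and 5 (4 higher and 1 lower) both without mixed sub-clusters and without shallow or mixed ones. Of 625 ratios of single genes, 594 kept their call or lack of a call, 18 lost the call and 7 gained it. The other 6 were of called genes and changed direction. Direction was not compared for genes without a call in the reported setting. Spp1 in collagen-positive cells, day 20 over day 16, gave log2 ratios of -0.55 without the 10 top cells, -0.27 after thinning, -1.93 without mixed sub-clusters and -2.28 without shallow or mixed ones. In Car3- and T-positive over other cells of GFP low, Mgp gave -0.092 and Cxcl12 -1.88 without the 10 top cells. There the 10 were taken from 28 Car3- and T-positive cells, which lowers the ratio by construction. Leaving out top cells or sub-clusters leaves fewer cells by construction, and for the rest the cause was not tested. TMM scaling shifted log2 ratios of all genes by 0.09 to 0.37, the most for day 20 over day 16 in collagen-positive cells, where 9 genes were then called. Thinning was not run for the Car3- and T-positive cells of GFP low, with under 20 cells left. Aspn without its 10 top cells in GFP high had no UMI left and gave no value. With 1 library a group, counting intervals leave out the spread between organoids.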
